A study of Mus musculus with 4 samples.

Results

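Transcripts of 9 chemokine receptor genes expressed by leukocytes, Ccr1, Ccr2, Ccr3, Ccr7, Ccrl2, Cx3cr1, Cxcr2, Cxcr3 and Cxcr4, were described in mouse alveolar macrophages lacking the transcription repressor Bach2 and in wild-type ones. The genes were taken by name, as chemokine receptors of leukocytes, out of 19751 genes with a symbol on the array. All 9 were measured, through 10 probes, among 15122 measured genes. One of them, Ccrl2, was higher in Bach2KO cells, Ccr2 was lower, and the other 7 did not meet the rule of size given below.

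Chemokine receptors are receptors with several membrane-spanning helices that couple to inhibitory G proteins and steer leukocytes along gradients of small secreted proteins, the chemokines. Arrestins and receptor kinases switch them off, and atypical receptors bind ligands without this signalling. In the lung they govern which monocytes, neutrophils, eosinophils and lymphocytes enter the tissue, while alveolar macrophages, phagocytes that live in the air sacs, persist there and are themselves a source of chemokines. Bach2 belongs to the CNC family of leucine zipper proteins, which pair with small Maf proteins and bind Maf recognition elements. Such elements extend a core shared with AP-1 sites.

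The groups compared were Bach2KO alveolar macrophages (also written Bach2-/-) and WT alveolar macrophages, both sorted from lung by flow cytometry. Cells were pooled from 4 Bach2KO mice according to the treatment protocol, or 3 according to the series design text, and from 8 WT mice. The deletion strategy, whether it was limited to a cell type, the age and sex of the mice and the sort gate were not given in the sources used here. Each genotype gave 1 RNA sample, which was split in 2, amplified and labelled with Cy3 in separate reactions, and hybridised to 2 Agilent arrays, with all 4 arrays on 1 slide. The 2 arrays of a genotype are therefore technical repeats, no biological replicate stands behind a difference between genotypes, and no test is given. The study's title names pulmonary surfactant homeostasis and alveolar macrophage function, and the comparison asked how transcripts differed without Bach2.

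A level below is the scaled log2 signal, the log2 of the processed probe signal minus the log2 of that array's 75th percentile, so that 0 is the 75th percentile. A difference is the mean of the Bach2KO arrays minus the mean of the WT arrays. SDs are over the 2 arrays of 1 RNA sample. Higher and lower are used of genes that met a rule of size, under which each of the 4 pairings of Bach2KO with WT arrays had to differ at least 2-fold the same way. Levels of different genes come from different probes and are not compared with each other, except where the signals of marker genes are summed. Such a sum, and the part of 1 gene in it, depends on how bright each probe is.

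Between 27367 and 27392 of 39429 probes were well above background on the Bach2KO arrays, and between 27125 and 27918 on the WT arrays. The 75th percentiles of the processed signal were 1036 and 979 on the Bach2KO arrays and 1267 and 1513 on the WT arrays. The Bach2 probe had scaled log2 signals of -5.16 and -8.13 on the Bach2KO arrays and -6.32 and -6.28 on the WT arrays. It was well above background on 1 array of each genotype and did not count as measured, and no source used here says whether it lies in the deleted part. It did not check the labels. Of 20 alveolar macrophage markers, 20 were well above background on both WT arrays and all but Epcam on both Bach2KO arrays. Itgax, which encodes CD11c, differed by 0.59 and Pparg, the nuclear receptor that specifies alveolar macrophages, by -0.10. Siglecf, a sialic acid-binding lectin that marks these cells, was 12.6-fold lower in Bach2KO cells. In all, 10 of the 20 markers were lower and 2 higher, where 5.9% of all measured genes were lower and 8.37% higher.

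Promoter sequences are shown for 4 of the receptors, Ccr3 and Cxcr3 because they hold letters related to Bach2 binding, and Ccrl2 and Ccr2 because they met the rule of size. Each is the 250 bases upstream of a RefSeq transcript start in assembly GRCm38.p6, written 5′ to 3′ along the strand of the gene. The letters searched on both strands were TGAGTCA (reverse complement TGACTCA), a core of AP-1 sites, and TGCTGA (reverse complement TCAGCA), letters at one side of Maf recognition elements. The searched sequences can overlap each other within a full Maf recognition element. Capitals mark matches. The windows are chr9:124021721-124021970 (+) for Ccr3, chrX:101734148-101734397 (-) for Cxcr3, chr9:111057519-111057768 (-) for Ccrl2, which is 1 of its 3 windows, and chr9:124101933-124102182 (+) for Ccr2.
Ccr3: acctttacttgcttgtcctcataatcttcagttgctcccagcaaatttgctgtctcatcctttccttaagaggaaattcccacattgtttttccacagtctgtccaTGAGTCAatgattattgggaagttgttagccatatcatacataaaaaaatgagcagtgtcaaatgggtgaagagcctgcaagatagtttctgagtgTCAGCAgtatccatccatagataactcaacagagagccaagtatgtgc
Cxcr3: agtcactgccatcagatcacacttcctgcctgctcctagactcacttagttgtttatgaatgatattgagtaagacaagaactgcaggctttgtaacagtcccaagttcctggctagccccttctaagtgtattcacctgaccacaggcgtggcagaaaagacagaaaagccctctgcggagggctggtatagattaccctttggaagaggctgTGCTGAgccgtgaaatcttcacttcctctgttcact
Ccrl2: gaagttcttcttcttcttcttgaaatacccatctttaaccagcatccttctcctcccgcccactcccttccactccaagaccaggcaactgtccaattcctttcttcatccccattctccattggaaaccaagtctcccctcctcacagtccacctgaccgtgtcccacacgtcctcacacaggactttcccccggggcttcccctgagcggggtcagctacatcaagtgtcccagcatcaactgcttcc
Ccr2: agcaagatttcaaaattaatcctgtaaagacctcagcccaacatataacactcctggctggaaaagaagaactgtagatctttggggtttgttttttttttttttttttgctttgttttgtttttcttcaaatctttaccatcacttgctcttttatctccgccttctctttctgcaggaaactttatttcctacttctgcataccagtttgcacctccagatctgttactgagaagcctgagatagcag

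Of the 9 receptors, 8 had 10 promoter windows in the RefSeq table, and Ccr7 had none there. The letters TGAGTCA lay in the Ccr3 window, 144 to 138 bases before the start, and in no other window of the 8 genes. Of all 32851 windows of this length, 4.46% held them. TGCTGA lay in the Ccr3 window on the opposite strand, 48 to 43 bases before the start, and in the Cxcr3 window 36 to 31 bases before the start. Of all windows, 16.1% held it. Ccr3 and Cxcr3 were not among the called genes, and the Ccrl2 and Ccr2 windows held neither set of letters. A match is a description of the letters and not a binding site, and the lack of one says only that the letters are not in the window.

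Counted together, 1 of the 9 receptors was higher (11.1%) and 1 lower (11.1%), where 8.37% of all measured genes were higher (1266 of 15122) and 5.9% lower (892 of 15122). A single gene each way is near these background shares. The median difference was 0.20 over the 9 receptors and 0.06 over all measured genes. The Bach2KO and WT arrays did not overlap for any of the 9, but this also held for 85.1% of all measured genes. At a threshold of 1.5-fold in all array pairs, 2 of the 9 were higher and 2 lower, against 14.8% and 12.8% of all measured genes.

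**Figure D1:**
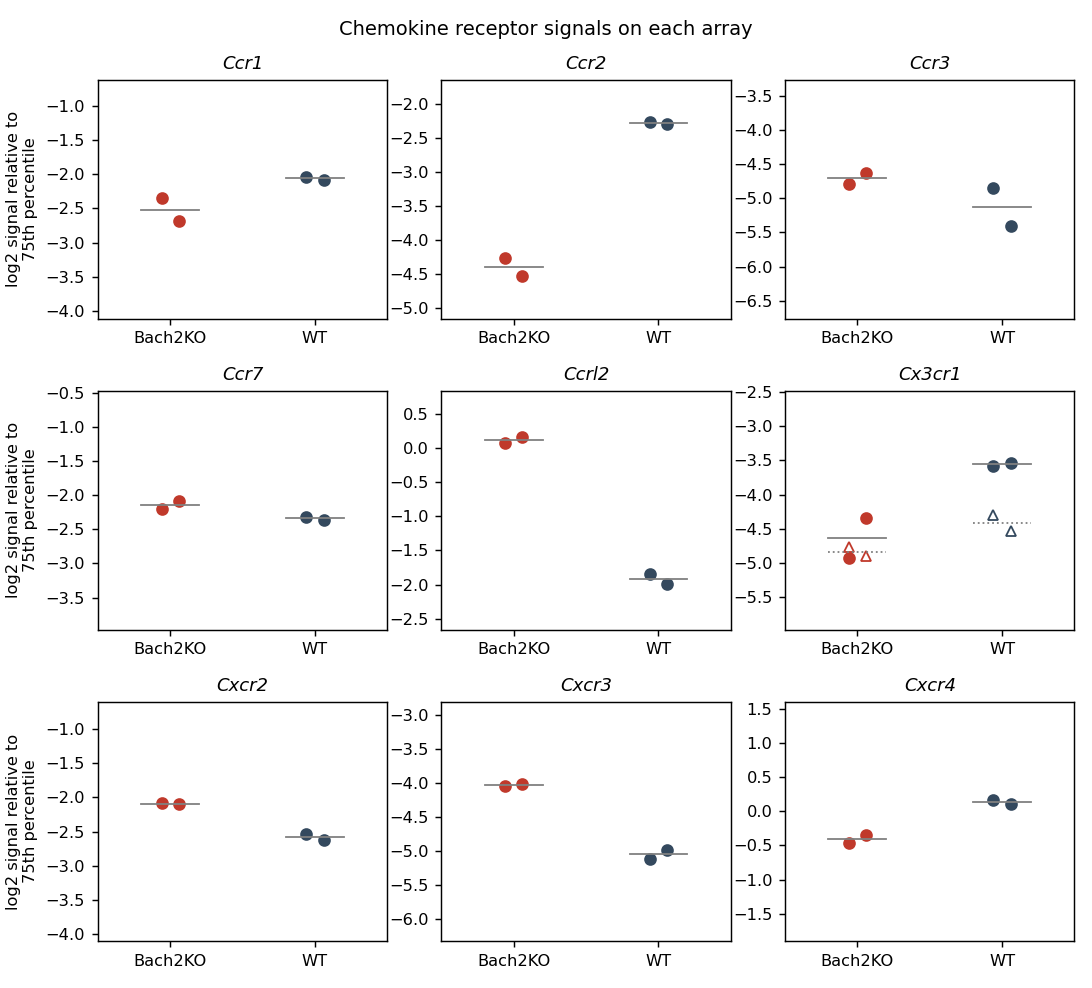
Scaled log2 signal (log2 relative to the array's 75th percentile) of the 9 chemokine receptor genes on each array, Bach2KO arrays left and WT arrays right in each panel, with lines at the means of the 2 arrays; triangles and dotted lines are the second Cx3cr1 probe. Panels have axes of equal length with different starting values. Ccr2 is lower and Ccrl2 higher in Bach2KO cells by about the same size, -2.11 and 2.04, while the Bach2KO and WT arrays lie close together for Ccr7.

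Ccr2 binds monocyte chemoattractants such as CCL2 and brings inflammatory monocytes out of the marrow and into tissue. Its level was -4.26 and -4.53 on the Bach2KO arrays and -2.27 and -2.30 on the WT arrays. Both Bach2KO arrays lay far below both WT arrays. The difference was -2.11, between -2.26 and -1.96 over the 4 array pairs, so Ccr2 was 4.33-fold lower in Bach2KO cells, with SDs of 0.19 in Bach2KO and 0.02 in WT. The unscaled processed signals were 54.1 and 42.3 in Bach2KO and 263 and 308 in WT, which shows the same order. The Bach2KO signals were the nearer to background, 1.92 and 1.45 log2 units above the lowest signal well above background on their arrays, against 3.87 and 4.26 in WT. Of all measured genes, 5.91% differed at least this much in either direction. In bulk RNA, fewer cells of a type and less RNA per cell cannot be told apart.

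Ccr1, a receptor of myeloid cells for CCL3, CCL5 and related chemokines, had levels of -2.35 and -2.69 in Bach2KO and -2.04 and -2.08 in WT. The Bach2KO arrays lay below the WT arrays, by less than the threshold. The difference of -0.46 ranged from -0.65 to -0.26 over array pairs, and the 2 Bach2KO arrays were themselves 0.34 apart. A difference this large was seen in 44.3% of measured genes.

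Ccr3, the eotaxin receptor of eosinophils, had levels of -4.79 and -4.63 in Bach2KO and -4.85 and -5.40 in WT. WT array 2 lay below the other 3, which were close together. The difference was 0.42, while the WT arrays alone were 0.55 apart. It was 0.69 without WT array 1 and 0.14 without WT array 2, so the size of the Ccr3 difference was set by which WT array was kept. The probe was 1.16 to 1.39 log2 units above the lowest signal well above background on each array.

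Ccr7 guides mature dendritic cells and naive T cells to lymph nodes. Its levels were -2.20 and -2.08 in Bach2KO and -2.32 and -2.36 in WT. All 4 arrays lay within a narrow band. The difference of 0.20 was the smallest in size among the 9, and 73.8% of measured genes differed at least this much.

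Cxcr2, the main neutrophil receptor for CXCL1 and CXCL2, had levels of -2.08 and -2.10 in Bach2KO and -2.54 and -2.62 in WT, a difference of 0.49 (1.40-fold). Both pairs of arrays were tight, with gaps of 0.01 in Bach2KO and 0.08 in WT. The unscaled signals were 244 and 229 in Bach2KO and 218 and 246 in WT, and those overlapped. The difference was -0.23 when the arrays were scaled to the spike-in probes.

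Cxcr3, the receptor of activated T cells and NK cells for CXCL9 and CXCL10, had levels of -4.05 and -4.02 in Bach2KO and -5.12 and -4.98 in WT. Both Bach2KO arrays lay above both WT arrays. The difference was 1.02, or 2.02-fold, with array pairs between 0.93 and 1.10, so some pairs met 2-fold and others did not. Of measured genes, 17.0% differed at least this much. The signal was low in both genotypes, 62.5 and 60.5 in Bach2KO and 36.5 and 47.8 in WT before scaling. With spike-in scaling the difference was 0.30, and with normexp background correction it was 0.57.

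Cxcr4, the receptor for CXCL12 that retains leukocytes in marrow and is widely present on blood cells, had levels of -0.46 and -0.35 in Bach2KO and 0.16 and 0.11 in WT. All arrays of the 2 genotypes lay apart, the Bach2KO ones lower. The difference was -0.54, or 1.45-fold in size, with pairs from -0.62 to -0.46. It reached -1.26 with spike-in scaling, where it met the rule as lower.

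Cx3cr1, the fractalkine receptor of patrolling monocytes, some tissue macrophages and NK cells, was read by 2 probes. The brighter had levels of -4.92 and -4.34 in Bach2KO and -3.58 and -3.54 in WT. The 2 Bach2KO arrays were 0.58 apart, and both lay below the WT arrays, which were 0.04 apart. The difference was -1.08, with pairs between -1.39 and -0.76, and 15.9% of measured genes differed at least this much. With normexp it was -0.34. The dimmer probe gave -4.77 and -4.90 in Bach2KO and -4.30 and -4.53 in WT, a difference of -0.42. Neither probe met the rule. Without Bach2KO array 2 the brighter probe met the rule as lower with -1.37, and without Bach2KO array 1 it was at -0.78.

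Ccrl2 is an atypical receptor that binds chemerin, the product of Rarres2, and is induced in activated macrophages and neutrophils. Its level was 0.08 and 0.16 in Bach2KO and -1.84 and -1.99 in WT. Both Bach2KO arrays were near the 75th percentile of their arrays, and both WT arrays were well below it. The difference was 2.04, between 1.92 and 2.15 over array pairs, so Ccrl2 was 4.10-fold higher in Bach2KO cells, with SDs of 0.06 in Bach2KO and 0.10 in WT. The unscaled signals were 1091 and 1097 in Bach2KO and 353 and 381 in WT. Of measured genes, 6.28% differed at least this much. Ccrl2 was not in any list of cell type markers used here, and the same holds for Ccr1 and Cxcr4.

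**Figure D2:**
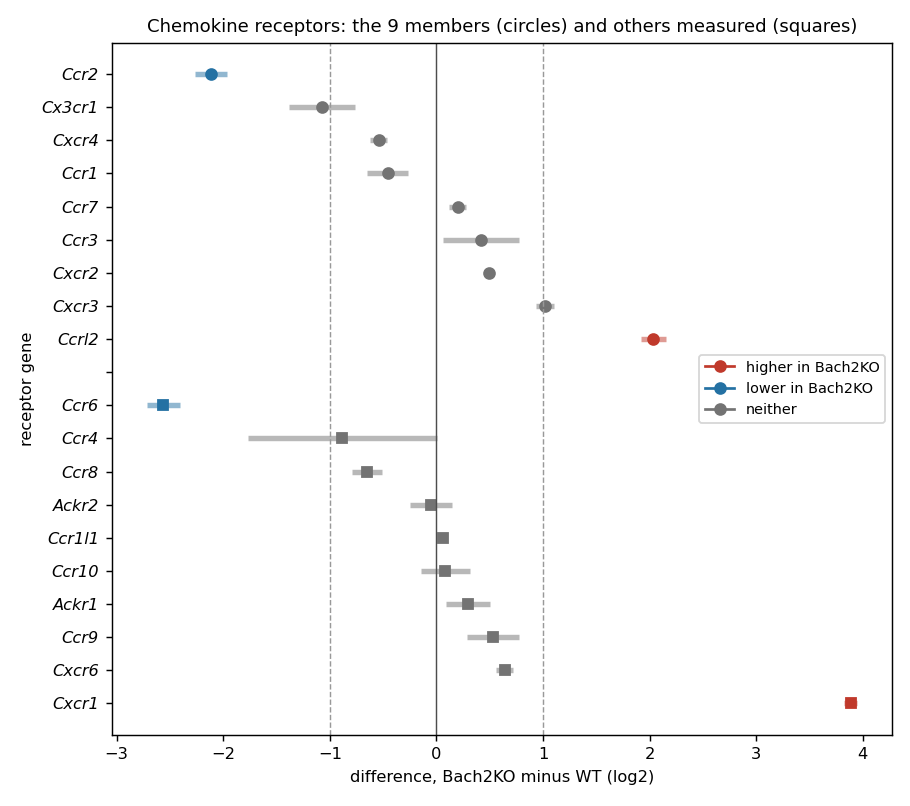
Difference in log2 signal, Bach2KO minus WT, of measured chemokine receptor genes, with the 9 genes described above as circles and 10 of the 11 other measured receptors as squares. Bars span the lowest and highest of the 4 array pairs, dashed lines mark a 2-fold difference, and colours mark genes that met the 2-fold rule in all pairs. Cxcr1 is farthest to the right at 3.89 and Ccr6 farthest to the left at -2.56. Ccr4, not well above background on either Bach2KO array, is drawn at its difference and not at its bound.

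The receptors share gene neighbourhoods that the choice by name did not use. In RefSeq's order of coding genes, Cxcr6, Xcr1, Ccr1, Ccr1l1, Ccr3 and Ccr2 follow each other on chromosome 9. Along this run the differences were 0.64 for Cxcr6, -0.46 for Ccr1, 0.06 for Ccr1l1, 0.42 for Ccr3 and -2.11 for Ccr2, with Xcr1 not measured. Of these, only Ccr2 met the rule. Cxcr2 lies beside Cxcr1 on chromosome 1, with differences of 0.49 and 3.89, and Cx3cr1 lies beside Ccr8 on chromosome 9, with -1.08 and -0.65. These neighbours are related in sequence, and a probe that also binds a related transcript could not be checked without probe sequences.

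Among 15 other chemokine receptors, 11 were measured, of which 2 were higher (18.2%) and 1 lower (9.09%), with a median difference of 0.08. Over all measured genes 8.37% were higher and 5.9% lower. Cxcr1, the CXCR2-related receptor for CXC chemokines, had levels of 4.82 and 4.76 in Bach2KO and 0.87 and 0.93 in WT and was 14.8-fold higher. Ccr6, the CCL20 receptor of lymphocytes and dendritic cells, had -5.01 and -5.20 in Bach2KO and -2.60 and -2.48 in WT and was 5.91-fold lower, or 2.46-fold with normexp. The 8 measured receptors that did not meet the rule differed between -0.88 (Ccr4) and 0.64 (Cxcr6, whose other probe gave 0.60). Ccr4 was not well above background on either Bach2KO array, and at its bound the difference was -0.60. Its WT arrays were 1.39 apart, and with normexp its difference was 0.06. Cxcr5, Xcr1, Ackr3 and Ackr4 were not measured.

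Many of the ligands of these receptors met the rule. Of 25 ligand genes, 20 were measured, and 10 of those were higher and 2 lower. The 10 include Ccl4 and Ccl8, which are paired with none of these receptors below. The median difference was 1.05 against 0.06 over all measured genes. The background shares were 8.37% higher and 5.9% lower. With normexp 8 were higher and 1 lower. The list was chosen with earlier results of these data known, so the count is a description. With spike-in scaling 8 of the 20 were higher and 2 lower.

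All 3 measured CCR2 ligands were higher in Bach2KO cells, where Ccr2 itself was lower. Ccl2 had levels of 2.03 and 2.09 in Bach2KO and -3.55 and -3.49 in WT, 48.0-fold higher. Ccl7 had -0.63 and -0.64 in Bach2KO and was not well above background on either WT array, so it was at least 52.4-fold higher. This bound sets Bach2KO against the larger of 2 signals on each WT array, that of the Ccl7 probe and the dimmest one that counted as well above background. Ccl12 was 3.56-fold higher. With normexp all 3 still met the rule, at 30.2-fold for Ccl2, 9.94-fold for Ccl7 and 2.25-fold for Ccl12. The receptor and its ligands thus differed in opposite directions in the same pools of RNA.

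For Ccr1, 4 of 5 measured ligands were higher. Ccl3 had levels of 4.06 and 3.96 in Bach2KO and -0.28 and -0.33 in WT, 19.9-fold higher. Ccl9 was 11.0-fold higher and Ccl5 2.26-fold. Ccl7, which binds CCR1, CCR2 and CCR3, was the fourth, and Ccl6 had a difference of 0.92 and did not meet the rule. The receptor itself differed by -0.46.

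For Ccr3, the eosinophil attractant Ccl24 had levels of -1.34 and -1.67 in Bach2KO and -6.07 and -5.81 in WT, 21.7-fold higher. Ccl5 and Ccl7 were the other 2 of its 3 measured ligands that were higher, and Ccl11 was not measured. The ligand list also held Ccl4 and Ccl8, which mainly serve receptors outside the 9 genes and were 14.8-fold (Ccl4) and 18.9-fold (Ccl8) higher. With normexp Ccl24 was 6.40-fold and Ccl8 7.35-fold higher.

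For Cx3cr1, its ligand Cx3cl1 (fractalkine) had levels of -0.83 and -0.80 in Bach2KO and 2.73 and 2.73 in WT and was 11.7-fold lower. The receptor's difference was negative too, but it did not meet the rule in all pairs. For Cxcr3, the interferon-induced ligand Cxcl10 had -3.29 and -3.30 in Bach2KO and -1.71 and -1.89 in WT and was 2.82-fold lower, and Cxcl9 differed by -0.32. The Cxcl10 call was lost with normexp correction, where the difference was -1.05. A dimmer Cxcl9 probe gave -0.14, and Cxcl11 was not measured.

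For Cxcr2, Cxcl1 was 2.30-fold higher, with levels of -4.34 and -4.52 in Bach2KO and -5.70 and -5.56 in WT, and Cxcl2 and Cxcl3 had differences of 0.78 and 0.87 that did not meet the rule. Cxcl5 and Ppbp were not measured. The Cxcl1 call was lost with median centring, quantile normalization, normexp correction and spike-in scaling, and the Ccl5 call with normexp and spike-in scaling. For Cxcr4, Cxcl12 differed by 0.80, and for Ccr7, Ccl19 differed by 0.07 and Ccl21a by -0.39. Dimmer Ccl19 probes gave 0.19 and 0.67 and did not meet the rule. Ccl21a has near-identical copies that its probe may not tell apart. For Ccrl2, the chemerin gene Rarres2 had levels of -4.67 and -4.58 in Bach2KO and -2.22 and -4.52 in WT, so the WT arrays were 2.31 apart and no direction was read from the difference of -1.26.

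**Figure D3:**
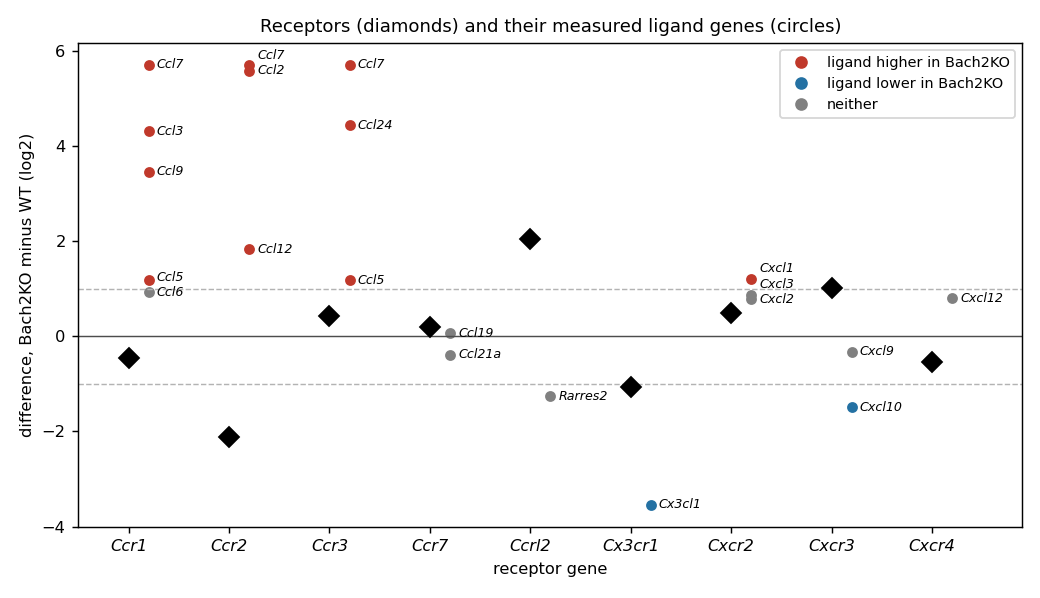
Difference in log2 signal, Bach2KO minus WT, of the 9 receptor genes (diamonds) and of their measured ligand genes (circles beside each receptor). Colours mark ligands that met the 2-fold rule in all array pairs, dashed lines mark a 2-fold difference, and Ccl7, not well above background in WT, is drawn at its lower bound. Ccr2 at -2.11 stands below its ligands Ccl2, Ccl7 and Ccl12, and Cx3cl1 at -3.54 is the lowest ligand.

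The genes that carry the receptors' signal gave 3 higher and 5 lower of 30 measured (10% and 16.7%), with a median difference of -0.14. Over all measured genes 8.37% were higher and 5.9% lower, with a median of 0.06. With spike-in scaling 3 of the 30 were higher and 14 lower, with a median of -0.86. Under that scaling 4.15% of all measured genes were higher and 21% lower, with a median of -0.66. The arrestins, which bind active receptors and end their coupling, differed in opposite directions. Arrb1 had levels of 4.26 and 4.26 in Bach2KO and 0.77 and 0.73 in WT, 11.4-fold higher, and Arrb2 had 0.88 and 0.86 in Bach2KO and 1.96 and 1.99 in WT, 2.15-fold lower. Among the RGS proteins, which speed the shut-off of G proteins, Rgs1 was 7.37-fold higher and Rgs18 at least 15.7-fold higher, being not well above background in WT. Rgs2 was 4.35-fold lower, with a second probe at -2.13, and Rgs14 was 2.62-fold lower. The receptor kinases Grk3 and Grk5 were 3.91-fold and 2.19-fold lower, and with normexp Grk5 no longer met the rule. The Rgs18 fold was 4.83 with normexp, below its bound. Gnai2, the main inhibitory G protein of leukocytes, differed by -0.45. The 22 other measured genes of the list, Gnai2 among them, did not meet the rule.

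Several of the receptors are used as markers of leukocytes that a lung sort could hold, and the other markers of those cells are given beside them. Their part in the receptor differences was not tested. Of the 12 measured monocyte markers other than Ccr2, 5 were higher and 2 lower, with a median of 0.30, and the sum of their signals relative to the 75th percentile was 175 to 191 in Bach2KO and 146 to 148 in WT. Ccr2 was lower while Ly6c1 was 5.56-fold, Hp 16.3-fold and F13a1 at least 24.9-fold higher, and Treml4 and Nr4a1, which mark patrolling monocytes, were 3.86-fold and 4.19-fold lower. A second Ly6c1 probe differed by 0.48 and did not meet the rule, and neither did Ace, also in this list, at 0.20. With spike-in scaling and with normexp, 3 of the 12 were higher and 2 lower, and the F13a1 fold was 5.53 with normexp, below its bound. F13a1 was not well above background on either WT array.

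Cx3cr1 also marks interstitial macrophages, of whose other 13 measured markers 9 were higher and none (0) lower. Their median difference was 2.01 with genes not well above background at their bounds. With normexp and with spike-in scaling, 7 of the 13 were higher and none (0) lower. The normexp median, taken without bounds, was 1.18, and Pf4 and Lyve1 lost the call under normexp. The summed signal of the 13 markers was 79.2 to 80.0 in Bach2KO and 57.6 to 59.9 in WT. C1qa, a complement component, was 17.0-fold higher (11.1-fold with normexp), whereas Cx3cr1 differed by -1.08. Folr2, Lyve1 and Maf were not well above background on either WT array, and Cd163 was not measured. In the list for NK cells, which holds Cx3cr1 too, 1 of the other 6 measured markers was higher (Klra8, a killer cell lectin-like receptor with close family copies) and none (0) lower, and Ncr1, Klrk1, Klre1 and S1pr5 were not measured. The summed NK cell signal was 2.70 to 2.84 in Bach2KO and 0.398 to 0.481 in WT. Klra8 alone made up 2.09 to 2.31 of the Bach2KO sum and was not well above background on either WT array.

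Cxcr3 and Ccr7 are carried by T cells, and of the other 15 measured T cell markers 6 were higher and 1 lower, with a median of 0.76. With spike-in scaling 2 were higher and 1 lower (median 0.04), and with normexp 3 and 1, Cd3d and Cd3g no longer among the higher. On neither WT array did Cd3d or Cd3g stand well above background, which gives bounds of at least 6.15-fold for Cd3d and 2.67-fold for Cd3g, both higher in Bach2KO. Lck was 2.97-fold and Lat 3.39-fold higher. Cd3e, well above background on both arrays of each genotype, differed by 0.17, Cd4 by 0.30 and Cd8a by 0.45. None of these met the rule, though a dimmer Cd4 probe was higher, at 1.20. Cd2, the 1 lower marker, was 3.81-fold lower, and the summed T cell signal was 28.7 to 29.2 in Bach2KO and 61.9 to 62.3 in WT. Cd2 alone made up 14.1 to 14.4 of that sum in Bach2KO and 54.2 to 54.6 in WT, and the sum of the others was 14.5 to 14.8 in Bach2KO and 7.28 to 8.14 in WT. Cxcr3 had a difference of 1.02 beside these.

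Cxcr2 is the defining receptor of neutrophils, of whose other 11 measured markers 3 were higher and 2 lower, with a median of 1.10. S100a8 was 13.5-fold higher, and S100a9 and Retnlg were not well above background on either WT array and at least 32.4-fold and 5.90-fold higher in Bach2KO, though with normexp their folds were 7.46 and 2.57. Trem1 and Mmp8 were 3.00-fold and 2.26-fold lower, and Csf3r differed by -0.35. Ngp, Mmp9 and Il1r2 were not measured. The summed neutrophil signal was 57.6 to 58.0 in Bach2KO and 49.96 to 50.5 in WT.

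Ccr3 marks eosinophils, of whose other 8 measured markers 1 was higher (Il1rl1, 4.71-fold) and 2 lower (Siglecf and Ear2, which alveolar macrophages express too). Prg2 was not well above background on either WT array, Epx, Alox15 and Gata1 were not measured, and Il5ra differed by -0.11. Il1rl1 did not meet the rule with normexp, under which 0 of the 8 were higher. The summed eosinophil signal was 118 to 121 in Bach2KO and 319 to 367 in WT, of which Ear2 made up 89.2 to 92.9 in Bach2KO and 258 to 300.4 in WT. For dendritic cells, the list that holds Ccr7, 2 of the other 10 measured markers were higher (Ccl17, 4.23-fold, and Bst2, 2.25-fold) and none (0) lower, whereas with spike-in scaling 1 was higher and 3 lower. Xcr1, Cd209a and Dpp4 were not measured, Flt3 differed by 0.42, and the summed signal was 47.1 to 47.5 in Bach2KO and 54.0 to 61.9 in WT. Single genes also led the other sums in both genotypes, Ms4a4c for monocytes, Csf1r for interstitial macrophages, Csf3r for neutrophils and Siglech for dendritic cells. The neutrophil sum without Csf3r was 26.0 to 28.0 in Bach2KO and 10.9 to 11.5 in WT. For interstitial macrophages without Csf1r it was 27.6 to 27.9 and 9.37 to 9.50. For monocytes without Ms4a4c it was 76.2 to 78.2 and 59.8 to 64.9, and for eosinophils without Ear2 28.5 to 28.9 and 61.4 to 67.1. Without Siglech the dendritic cell sum was 12.4 to 12.8 in Bach2KO and 6.69 to 6.74 in WT, the reverse of the order with it.

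**Figure D4:**
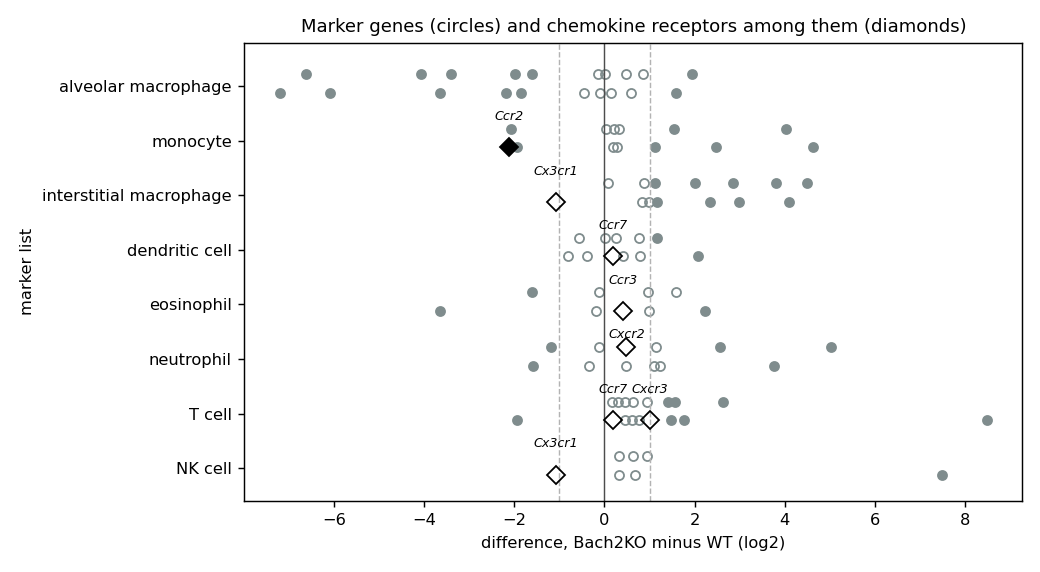
Difference in log2 signal, Bach2KO minus WT, of the measured genes of 8 marker lists, 1 list in each line of the plot. Circles are marker genes (filled where the 2-fold rule was met), diamonds are the chemokine receptors in that list, dashed lines mark a 2-fold difference, and genes not well above background in 1 genotype are drawn at their bound. Ccr2 at -2.11 lies on the left side of the monocyte list, and Cx3cr1 at -1.08 lies left of all interstitial macrophage markers.

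Across 18 alternatives to the processing, Ccrl2 stayed higher and Ccr2 lower. Many of these settings could not have undone these calls. The 1.5-fold threshold, the rule on array means, the replicate blocks and leaving out an array only relax the rule. The filters on dim probes, keeping outlier spots and averaging probes left the values of both genes unchanged. The calls could have been lost with the 3-fold threshold, another scaling or normexp. The Ccrl2 difference lay between 1.32, with spike-in scaling, and 2.11, without WT array 1. The Ccr2 difference lay between -2.83, with spike-in scaling, and -1.09, with normexp. Scaling to 9 spike-in probes moved the difference of every gene by -0.72, and the median over all measured genes was then -0.66. Under it 4.15% of all measured genes were higher and 21% lower, and Cx3cr1 (-1.79) and Cxcr4 (-1.26) joined Ccr2 as lower, while Ccr1, at -1.18, did not meet the rule in all array pairs. The signs of Ccr3, Ccr7 and Cxcr2 turned under it, to -0.30, -0.52 and -0.23, and Cxcr3 was at 0.30.

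**Figure D5:**
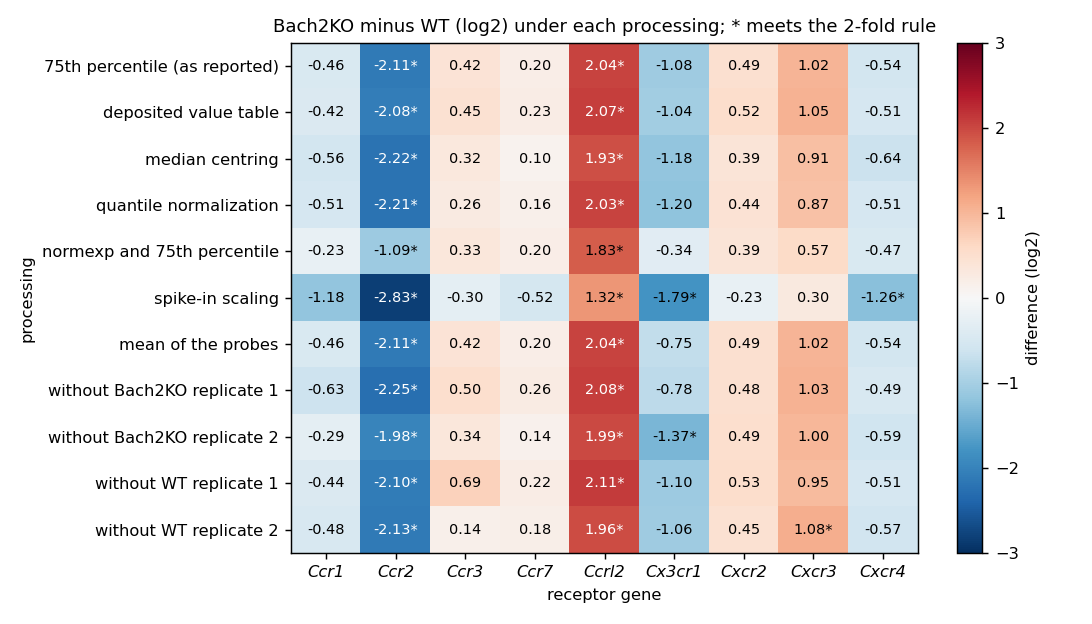
Difference in log2 signal, Bach2KO minus WT, of the 9 receptor genes (columns) under the processing reported and 10 alternatives, with colour and number giving the difference and a star marking the 2-fold rule met in all array pairs kept. Ccr2 and Ccrl2 carry the star throughout, and spike-in scaling, at -2.83 and 1.32 for those genes, lowers every difference.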

How the data were processed

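RNA of 1 sorted alveolar macrophage pool per genotype was measured on 4 one-colour Agilent arrays, 2 per genotype, grouped by the sample titles. The scanner files deposited by the authors hold spot intensity on a linear scale made, per the file headers, with Feature Extraction 10.7.3.1 of Agilent (9.1 per the submitters' processing notes), background-subtracted and detrended but not normalized between arrays. The deposited value table holds log2 values, which equalled each array's own log2 signal minus a constant near its 75th percentile. That settles its scale, its lack of gene centring and its direction. Column medians were -3.53 and -3.45 for Bach2KO and -3.58 and -3.67 for WT.

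From the processed intensity, control and outlier spots were left out, spots of a probe averaged on log2, and each array's 75th percentile over non-control spots subtracted. Genes were named through RefSeq accessions (26055 of 39429 probes had 1 symbol, 0 several, 13374 none; the array design is on mm9). A gene counted as measured when both arrays of at least 1 genotype held it well above background, and its brightest such probe stood for it. The number of arrays limits the precision. The 2-fold rule is not a test, and where a genotype was not well above background its bound also had to reach 2-fold.

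The 9 receptors and the 16 gene lists were chosen with earlier results of these data known, and the pairing of receptors with ligands was written after the values could be seen. Named genes were all 9 receptors, called other receptors and ligands, up to 4 called genes of each other list, and defining markers. Further genes (ligands and signalling or marker genes that were not called or beyond those 4) were named after their values were seen, to complete a receptor's account. Mast cell or basophil markers gave 0 higher and 0 lower of 4 measured, B or plasma cell markers 2 and 1 of 10, endothelial markers 2 and 0 of 7, and epithelial markers 2 and 1 of 7. The shares over all measured genes were 8.37% higher and 5.9% lower. Same-numbered arrays did not deviate together (correlation -0.14), so no block was used. Alternatives included limma 3.58.1 in R 4.3.3 for normexp on median spot signals with an offset of 50. Protein sequences were not used here. Some genes that this rule selects are not reported here.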

Additional observations from a re-analysis of the deposited data

How the results depend on the processing

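With 1 RNA sample per genotype, nothing here measures the spread between mice. Receptors near background are the least certain, such as Ccr3 and Cxcr3, and in Bach2KO also Ccr2 and Cx3cr1. Ccr2 was 4.33-fold lower as reported and 2.13-fold lower with normexp. Of the 9 receptors, 3 were lower with spike-in scaling. With a 1.5-fold threshold and with the 2-fold rule on array means, 2 were higher and 2 lower. Under the rule on array means, 9.78% of all measured genes were higher and 6.95% lower (1479 and 1051 of 15122). Leaving out 1 array gave 1 to 2 higher and 1 to 2 lower, the additions being Cxcr3 without WT array 2 and Cx3cr1 without Bach2KO array 2. Over all measured genes, spike-in scaling gave 627 higher and 3175 lower (16.5% of calls higher, against 58.7% as reported), the 1.5-fold threshold 2237 and 1933, the 3-fold threshold 695 and 410, and leaving out 1 array 1328 to 1490 higher and 968 to 1035 lower. With the replicate number as a block, 1301 genes were higher and 916 lower, and with a crossed replicate block, chosen after seeing the data, 1340 and 944. Under both blocks 1 receptor was higher and 1 lower. The cause of these changes was not tested beyond what each setting alters by construction. No receptor that met the rule changed sign under any of the 18 alternatives. For many of them this was fixed beforehand. Thresholds and blocks leave a difference as it is, and the rule already required the same sign in every array pair.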
